A study of Mus musculus with 9 samples.

Results

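The CXC chemokines are small secreted proteins that direct leukocyte migration, and 9 of their genes, chosen by name, were followed here among the 57010 genes of a bulk RNA sequencing table: Cxcl1, Cxcl2, Cxcl5, Cxcl10, Cxcl12, Cxcl14, Cxcl15, Cxcl16 and Cxcl17. The RNA came from primary cultured renal cells (PCRC) of wild-type mice, a mixed culture grown from digested whole kidney without sorting. There were 3 libraries in each of 3 groups taken 6 h after treatment: 20 ng/mL TNFα (written TNF) with 1 µM ACHP, 20 ng/mL TNF alone, and PBS. ACHP inhibits the NF-kB pathway, and the study addresses what TNF induces in these cells and which part of it needs NF-kB. No group received ACHP alone, so an effect of ACHP on unstimulated cells cannot be told apart from an effect on the TNF response. The labels give neither the age of the mice nor whether the replicates are separate animals, and the p-values therefore describe only variation among these libraries, which may be technical. Total counts per library lay between 14194295 and 20892176.

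Chemokines of this family carry a CXC cysteine motif, and those with the tripeptide ELR before it, among them mouse Cxcl1, Cxcl2, Cxcl5 and Cxcl15, attract neutrophils. Cxcl1, Cxcl2 and Cxcl5 act through the receptor Cxcr2. Cxcl10 is an interferon-inducible ligand of Cxcr3 on activated T cells, and Cxcl16 is a membrane-bound ligand of Cxcr6 that the protease Adam10 can shed. Cxcl12, a ligand of Cxcr4 and of the scavenger receptor Ackr3, and Cxcl14 are mostly constitutive, and Cxcl17 is a mucosal chemokine. TNF acts on many chemokine genes through NF-kB, whose dimers bind related decamers in promoters, and the stability of Cxcl1 and Cxcl2 mRNA is itself regulated.

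Promoter windows of 250 bases before the annotated start were available from RefSeq (GRCm38.p6) for 6 of the 9 genes, not for Cxcl5, Cxcl16 and Cxcl17. Those of Cxcl1, Cxcl2 and Cxcl10 are shown because these genes rose with TNF, and of them only Cxcl10 was called lower with ACHP. Capitals mark matches to an NF-kB type motif, GGGA, any 4 bases and CC, on either strand, and to an IRF type motif, GAAA, any 2 bases and GAAA, on either strand. The windows are chr5:90890995-90891244 (plus strand) for Cxcl1, chr5:90903649-90903898 (plus strand) for Cxcl2 and chr5:92348890-92349139 (minus strand) for Cxcl10, each written 5′ to 3′.
Cxcl1: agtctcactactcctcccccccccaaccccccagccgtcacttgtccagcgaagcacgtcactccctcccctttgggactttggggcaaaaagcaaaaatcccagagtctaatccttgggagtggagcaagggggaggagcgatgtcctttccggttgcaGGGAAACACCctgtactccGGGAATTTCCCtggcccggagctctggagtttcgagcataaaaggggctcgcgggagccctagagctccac
Cxcl2: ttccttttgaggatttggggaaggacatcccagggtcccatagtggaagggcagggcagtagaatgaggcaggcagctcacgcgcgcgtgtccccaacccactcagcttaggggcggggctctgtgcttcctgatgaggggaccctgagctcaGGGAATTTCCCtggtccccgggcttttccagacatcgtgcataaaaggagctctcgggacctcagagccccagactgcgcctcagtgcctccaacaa
Cxcl10: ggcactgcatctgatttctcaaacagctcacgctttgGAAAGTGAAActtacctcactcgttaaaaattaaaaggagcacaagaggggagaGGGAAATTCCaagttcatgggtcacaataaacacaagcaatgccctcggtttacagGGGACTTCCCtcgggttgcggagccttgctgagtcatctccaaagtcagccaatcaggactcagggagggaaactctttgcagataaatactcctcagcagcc
Cxcl1 and Cxcl2 share the decamer GGGAATTTCC, which lies 71 to 62 bases before the start in Cxcl1 and 97 to 88 bases before it in Cxcl2. In both, a reverse-strand match overlaps it by all but 1 base. Cxcl1 has a further match, GGGAAACACC, at 90 to 81 bases. Cxcl10 has GGGAAATTCC at 159 to 150 bases and GGGACTTCCC, matched on both strands, at 103 to 94 bases, with the IRF type match GAAAGTGAAA at 213 to 204 bases. Among 32851 RefSeq promoter windows of this length, 17.6% hold the NF-kB type motif and 2.98% the IRF type motif. The Cxcl14 window holds an IRF type match, GAAACAGAAA, and none of the NF-kB type, and those of Cxcl12 and Cxcl15 hold neither. A match describes the letters of the window and is not a measured binding site.

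Of the 9 genes, 7 passed the filter on low counts, and each of these was above the filter's level of 0.608 CPM (counts scaled by library size) in all 9 libraries, so none was retained through a single high group. Cxcl15, the lung-enriched chemokine also called lungkine (ENSMUSG00000029375, chromosome 5, 90942393 to 90950926, GRCm39), had 2 counts over all libraries. Cxcl17 (ENSMUSG00000060188, chromosome 7, 25099478 to 25112311) had 1, 3 and 4 counts with TNF and ACHP, 1, 2 and 1 with TNF, and 4, 4 and 6 with PBS. Neither gene was tested.

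Levels between genes were compared as CPM per kilobase of exon. Cxcl16 was the highest in every group, at 41.7 ± 3.02 with TNF and ACHP, 56.2 ± 0.983 with TNF and 36.9 ± 0.175 with PBS (SD, n = 3 each). Cxcl10 came next, at 8.68 ± 0.824, 21.8 ± 0.531 and 9.11 ± 0.810 CPM per kilobase in the same groups. Cxcl2 followed with 6.06 ± 0.168, 6.94 ± 0.619 and 2.44 ± 0.315.
The order of the lower genes depended on the group. With TNF and ACHP, Cxcl5 averaged 4.69 ± 2.15 CPM per kilobase, which overlapped Cxcl2 above it and Cxcl1 below it, at 2.95 ± 0.365. With TNF, Cxcl1 averaged 2.59 ± 0.631 and Cxcl5 1.27 ± 0.0942, followed by Cxcl14 at 1.02 ± 0.0332 and Cxcl12 at 0.977 ± 0.0382, whose SD ranges overlapped. With PBS, Cxcl1 (1.27), Cxcl14 (1.18) and Cxcl5 (1.08) did not differ beyond their spread.

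Marker lists describe the cultures. Of 10 kidney tubule genes 9 were kept, with a summed level of 4737 to 5040 CPM with TNF and ACHP, 4484 to 4533 with TNF and 4622 to 4675 with PBS, and Aqp2, the collecting duct water channel, had 0 counts. None of 8 neutrophil markers was kept, with sums of 0.525 to 0.613 CPM with TNF and ACHP, 0.533 to 0.897 with TNF and 0.613 to 0.706 with PBS, and Elane and Retnlg at 0. None of 7 T and B cell markers was kept, with at most 0.353 CPM in any library. The macrophage list summed to 23.9 to 25.8 CPM with TNF and ACHP, against 45.0 to 48.2 with TNF and 42.1 to 46.9 with PBS. Of its 10 tested genes, 7 were called lower in the TNF and ACHP group than in the TNF group, where 4.46% of all genes were. The fibroblast list summed to 193 to 198, 206 to 223 and 258 to 276 CPM in the same order of groups, and the endothelial list to 22.4 to 28.2, 28.2 to 32.7 and 27.9 to 32.7. In such bulk samples fewer cells of a type and less RNA per cell cannot be told apart. A neuron list stood apart: it summed to 2.67 to 3.68 CPM in the TNF and ACHP libraries and 26.9 to 51.2 in the TNF libraries, and to 2.68, 76.7 and 58.6 in PBS replicates 1, 2 and 3. The tests of TNF and ACHP against TNF lie wholly across this split, and those against PBS partly, so for the 9 genes, the other ligands and the pathway lists the calls in these comparisons are also given with a term for the 5 libraries with high neural transcripts. TNF against PBS also lies partly across it, and there the term is given only where it changed the count of a pathway list. No such term was used for the ratios within libraries and the shares of a rise kept. The size of that term comes from PBS replicate 1 against PBS replicates 2 and 3 only. With the term, 4 of the 10 tested macrophage genes were lower with TNF and ACHP than with TNF, where 0.97% of all genes were called.

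TNF against PBS raised 4 of the 7 tested genes and lowered none, where 6.22% of all 14747 genes tested were called in either direction 3.31% higher and 2.91% lower (edgeR quasi-likelihood test, adjusted p under 0.05). The median log2 fold change was 0.61 over the 7 genes and -0.002 over all genes.
Cxcl2 (ENSMUSG00000058427, chromosome 5, 91051730 to 91053797) was at 13.1, 14.4 and 15.6 CPM with TNF, against 5.36, 4.29 and 5.47 with PBS. Every TNF library was above every PBS library, a log2 fold change of 1.51 (SE 0.11, edgeR adjusted p = 2.8e-08).
Cxcl1 (ENSMUSG00000029380, chromosome 5, 91039100 to 91040974) was at 5.05, 5.93 and 3.59 CPM with TNF, against 2.61, 2.34 and 2.22 with PBS. TNF replicate 3 was the lowest of the TNF libraries but lay above all PBS libraries, and the fitted log2 change was 1.03 (SE 0.20, edgeR adjusted p = 0.0027).
Cxcl10 (ENSMUSG00000034855, chromosome 5, 92494497 to 92496748, 5.91% of its exon length shared with another gene) was at 49.0, 50.2 and 47.8 CPM with TNF, against 19.1, 20.0 and 22.6 with PBS. The groups did not overlap, and the fitted log2 change was 1.25 (SE 0.07, edgeR adjusted p = 4e-10).
Cxcl16 (ENSMUSG00000018920, chromosome 11, 70344809 to 70350810, 18.3% of its exon length shared) was at 171, 172 and 167 CPM with TNF, against 111, 111 and 112 with PBS, also without overlap. Its fitted log2 change was 0.61 (SE 0.05, edgeR adjusted p = 2.8e-08).
Of the neutrophil chemokines compared here (Cxcl1, Cxcl2 and Cxcl5), Cxcl5 did not pass. Cxcl5 (ENSMUSG00000029371, chromosome 5, 90907219 to 90909483) was at 2.25, 2.27 and 2.56 CPM with TNF, against 2.47, 1.45 and 2.11 with PBS. The groups overlapped, and the fitted log2 change was 0.25 with a 95% interval of -0.49 to 0.98 (edgeR adjusted p = 0.78).
Cxcl12 (ENSMUSG00000061353, chromosome 6, 117145496 to 117158328) was at 8.35, 7.79 and 7.81 CPM with TNF, against 6.56, 7.02 and 6.22 with PBS. The groups did not overlap, yet the log2 fold change of 0.28 (95% interval -0.01 to 0.56) did not pass (edgeR adjusted p = 0.28). Cxcl14 (ENSMUSG00000021508, chromosome 13, 56436456 to 56444364) was at 1.81, 1.93 and 1.86 CPM with TNF, against 1.41, 2.23 and 2.81 with PBS. PBS replicates lay on both sides of the TNF libraries, and the fitted log2 change was -0.22 (95% interval -0.80 to 0.36, edgeR adjusted p = 0.75).

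**Figure D1:**
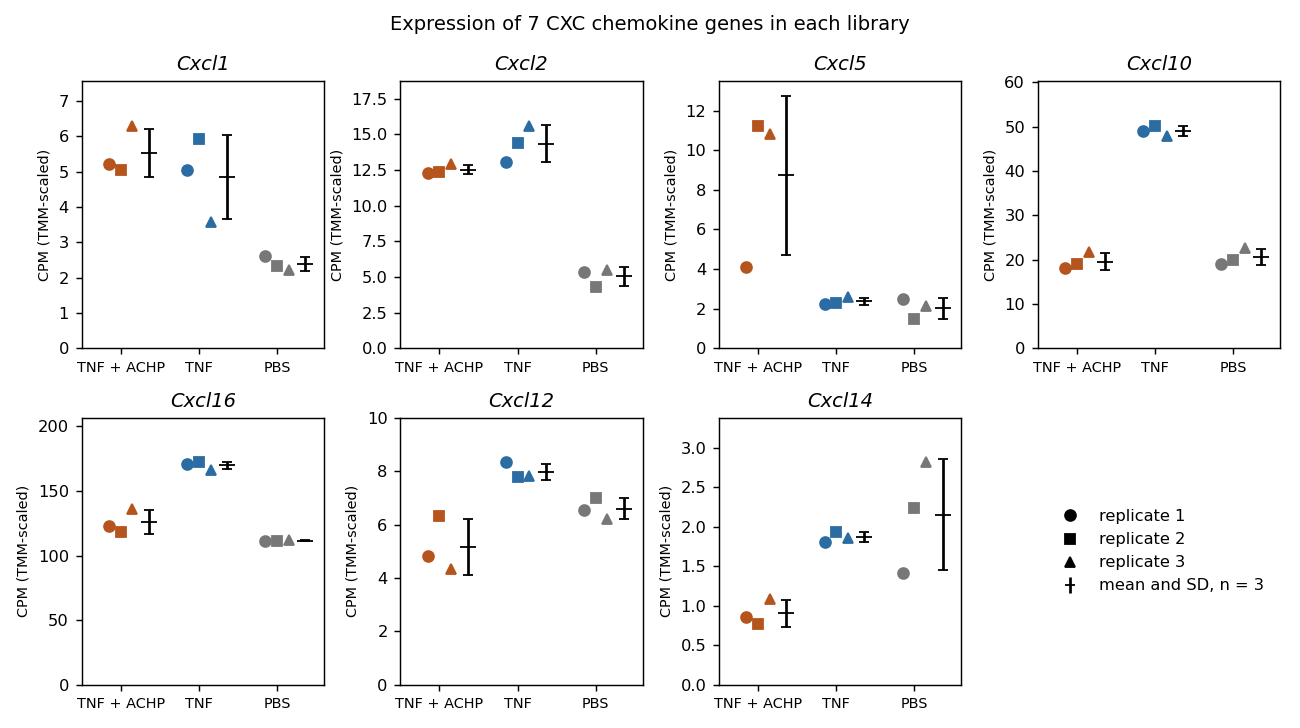
Expression of the 7 tested CXC chemokine genes in CPM (vertical axes from 0) in each library of the TNF + ACHP, TNF and PBS groups; symbols mark replicates and the bars give the mean and SD of 3 libraries. Cxcl10 is near 20 CPM in the TNF + ACHP and PBS libraries and near 49.0 with TNF, whereas Cxcl1 and Cxcl2 are above their PBS libraries in every TNF + ACHP library, and Cxcl5 is highest in that group, with 4.11 CPM in replicate 1 and 11.3 in replicate 2.

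The comparison of TNF and ACHP with TNF asks how each gene differed when ACHP was given with TNF. With a single dose and no group given ACHP alone, it does not measure how far a gene depends on NF-kB. Cxcl10, Cxcl16, Cxcl12 and Cxcl14 were called lower with ACHP, and Cxcl5 was called higher. Cxcl1 and Cxcl2 did not pass, which does not show that they differ from the genes that did. In all, 1 of the 7 genes was called higher and 4 were called lower, where 7.17% of all genes were called, 2.71% higher and 4.46% lower. With the term for neural transcripts 2 were called, Cxcl10 and Cxcl16, where 0.97% of all genes were.
Cxcl1 was at 5.21, 5.06 and 6.31 CPM with TNF and ACHP, against 5.05, 5.93 and 3.59 with TNF. The groups overlapped, and the fitted log2 change was 0.18 with a 95% interval of -0.19 to 0.55 (edgeR adjusted p = 0.62).
Cxcl2 was at 12.3, 12.4 and 12.9 CPM with TNF and ACHP, against 13.1, 14.4 and 15.6 with TNF. Every ACHP library was below every TNF library, but the log2 fold change of -0.19 (95% interval -0.40 to 0.01) did not pass (edgeR adjusted p = 0.28). With the neural term the log2 change was -0.015 for Cxcl1 (95% interval -0.79 to 0.76) and -0.33 for Cxcl2 (95% interval -0.82 to 0.16), so a fall in either gene was not well bounded.
Cxcl5 was at 4.11, 11.3 and 10.8 CPM with TNF and ACHP, against 2.25, 2.27 and 2.56 with TNF. All ACHP libraries were above all TNF libraries, but replicate 1 was far below replicates 2 and 3. Its fitted log2 change was 1.90 (SE 0.29, edgeR adjusted p = 0.00024), between 1.66 and 2.23 when single libraries were left out. With the neural term it was 1.43 (SE 0.58, edgeR adjusted p = 0.31) and no longer passed.

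Cxcl10 was at 18.0, 19.0 and 21.6 CPM with TNF and ACHP, against 49.0, 50.2 and 47.8 with TNF, without overlap. Its fitted log2 change was -1.33 (SE 0.07, edgeR adjusted p = 1.7e-10), and -1.17 (edgeR adjusted p = 4e-05) with the neural term. Cxcl16 was at 123, 119 and 136 CPM with TNF and ACHP, against 171, 172 and 167 with TNF, without overlap. Its fitted log2 change was -0.43 (SE 0.04, edgeR adjusted p = 2.7e-06), and -0.43 (edgeR adjusted p = 0.0097) with the neural term. The macrophage list fell in the same libraries, as given above, and its part in these results was not tested.
Cxcl12 was at 4.84, 6.34 and 4.33 CPM with TNF and ACHP, against 8.35, 7.79 and 7.81 with TNF. The groups did not overlap, and the fitted log2 change was -0.61 (SE 0.14, edgeR adjusted p = 0.0093). Without TNF replicate 1 or TNF and ACHP replicate 3 the adjusted p was 0.054 and 0.055, and with the neural term the fitted log2 change was -0.60 (edgeR adjusted p = 0.35). Of 8 tested fibroblast genes 3 were lower in the same comparison, where 4.46% of all genes were. None was lower with the neural term, where 0.97% of all genes were called. The part of these genes in the result was not tested.
Cxcl14 was at 0.858, 0.763 and 1.08 CPM with TNF and ACHP, against 1.81, 1.93 and 1.86 with TNF, from 14 to 17 and 29 to 33 counts a library. The groups did not overlap, and the fitted log2 change was -1.06 (SE 0.31, edgeR adjusted p = 0.043). The call was lost without any one of the TNF or the TNF and ACHP libraries or PBS replicate 2 (edgeR adjusted p = 0.05 to 0.17). With the neural term the fitted log2 change was -0.22 (edgeR adjusted p = 0.91).

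**Figure D2:**
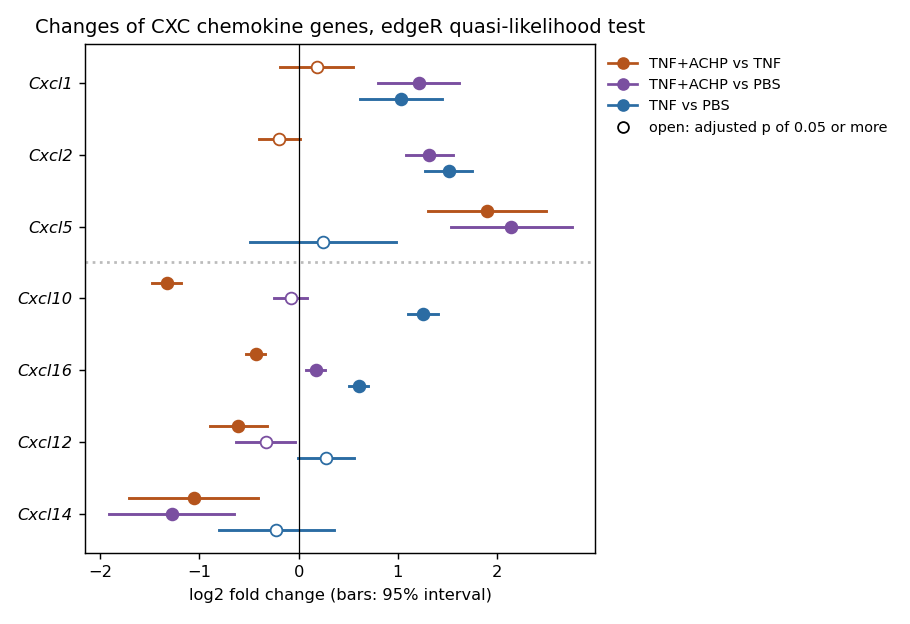
Log2 fold changes of the 7 tested genes (horizontal axis) with 95% intervals from the edgeR quasi-likelihood test in the 3 comparisons; open symbols did not pass an adjusted p of 0.05, and the dotted line divides the neutrophil chemokines from the others. For TNF + ACHP vs TNF, Cxcl1 (0.18) and Cxcl2 (-0.19) lie near 0 and Cxcl5 at 1.90, whereas the 4 genes under the line lie between -1.33 and -0.43.

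The TNF and ACHP cultures were also set against PBS, with which the preceding comparisons share libraries. Here 4 of the 7 genes were called higher and 1 lower, where 6.04% of all genes were called, 2.18% higher and 3.87% lower. With the neural term 2 were called, Cxcl2 and Cxcl5, where 1.1% of all genes were. With that term this comparison sets the TNF and ACHP libraries against PBS replicate 1 alone, the only PBS library with few neural transcripts.
The per-library levels are those given above. All 3 neutrophil chemokines were higher with TNF and ACHP than with PBS, without overlap: Cxcl2 by 1.32 on the log2 scale (SE 0.11, edgeR adjusted p = 8.5e-07), Cxcl1 by 1.21 (SE 0.19, edgeR adjusted p = 0.00072) and Cxcl5 by 2.14 (SE 0.29, edgeR adjusted p = 0.00016). With the neural term Cxcl2 was at 1.22 (edgeR adjusted p = 0.00088), Cxcl5 at 1.83 (edgeR adjusted p = 0.03) and Cxcl1 at 1.07 (edgeR adjusted p = 0.089).
Cxcl10 had a log2 fold change of -0.08 with a 95% interval of -0.25 to 0.09 (edgeR adjusted p = 0.67). Cxcl16 was higher by 0.17 (SE 0.05, edgeR adjusted p = 0.028), a call lost in a fit of the 6 libraries compared (edgeR adjusted p = 0.085) and without any one of PBS replicates 1 and 2, TNF replicate 1 and TNF and ACHP replicate 3 (edgeR adjusted p = 0.052 to 0.17). Cxcl12 was at -0.33 (95% interval -0.63 to -0.04, edgeR adjusted p = 0.20), and at -0.52 (edgeR adjusted p = 0.046) without TNF and ACHP replicate 2. Cxcl14 was lower, at -1.28 (SE 0.30, edgeR adjusted p = 0.014), and at -0.66 (edgeR adjusted p = 0.63) with the neural term.

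The share of the TNF rise in CPM that remained with ACHP was computed for the 4 genes that TNF raised, and both differences use the same TNF and PBS libraries. It was 127% for Cxcl1 (101 to 163% leaving out single libraries), 80.4% for Cxcl2 (75.2 to 86.3%), 24.8% for Cxcl16 (16.0 to 31.1%) and -3.46% for Cxcl10 (-7.09 to 0.12%). Over the 46 genes that TNF raised at least 2-fold the median share was 8.90%, and 3 genes, Cxcl1 and Cxcl2 included, kept at least as much as Cxcl2.

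The neutrophil group was then compared with the others inside each library, where library size cancels, as the log2 ratio of a neutrophil chemokine to another gene (prior count 2). Of the 12 pairs, 11 had ratios that did not overlap between the groups, and all 11 were higher with TNF and ACHP than with TNF.
Cxcl1 relative to Cxcl10 was at -1.77, -1.88 and -1.76 with TNF and ACHP, against -3.25, -3.06 and -3.69 with TNF, a difference of 1.53. Cxcl2 relative to Cxcl10 was at -0.54, -0.62 and -0.73 with TNF and ACHP, against -1.90, -1.80 and -1.61 with TNF, a difference of 1.14. The ratios of Cxcl1 and of Cxcl2 to Cxcl16 differed by 0.64 and 0.24, with every ACHP library above every TNF library.
The pair that overlapped was Cxcl2 and Cxcl12, with a ratio of 1.28 ± 0.30 with TNF and ACHP and 0.83 ± 0.18 with TNF (SD, n = 3 each, exact permutation test, two-sided p = 0.2). For the other 11 pairs the exact two-sided permutation p was 0.1, the smallest that 3 against 3 libraries allow, and 0.109 after adjustment over the 12 pairs. No pair could therefore pass 0.05.
Across all other kept genes the ratio did not overlap, in either direction, for 8.73% with Cxcl1, 40.3% with Cxcl2 and 95.9% with Cxcl5. Over the 3 the share was 48.3%. All 11 separated pairs were higher with TNF and ACHP, and the share of all genes in that direction was not computed. Against the shares in either direction the 4 of 4 pairs of Cxcl1 were well above the background. The 3 of 4 of Cxcl2 were higher by less against its share in either direction, whereas the 4 of 4 of Cxcl5 were near its own. The pairs of a gene share its values, and all 4 other genes were already called lower with ACHP. The pairs therefore restate those calls and are not separate observations. The calls of Cxcl12 and Cxcl14 were lost with the neural term, which the ratios do not take into account. Their log2 fold changes went from -0.61 to -0.60 for Cxcl12 and from -1.06 to -0.22 for Cxcl14. The median log2 fold change with ACHP against TNF was 0.18 in the neutrophil group, -0.83 in the other 4 genes and 0.003 over all genes, so that the groups differed by 1.01, and by 0.50 with the neural term.

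**Figure D3:**
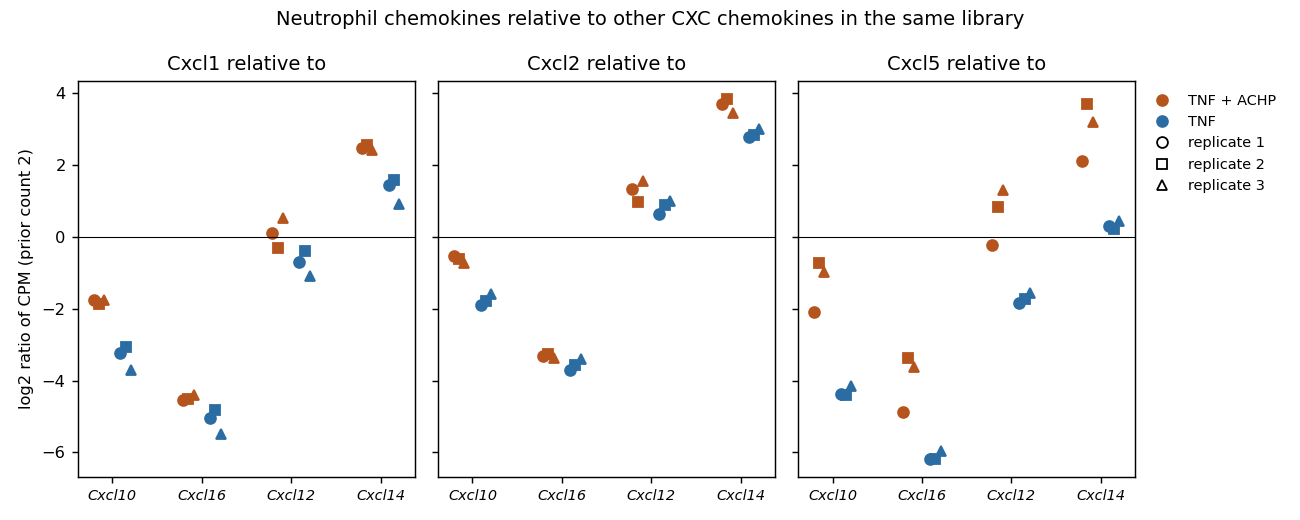
Log2 ratio of Cxcl1, Cxcl2 and Cxcl5 (panels) to Cxcl10, Cxcl16, Cxcl12 and Cxcl14 (horizontal positions) in each TNF + ACHP and TNF library, with symbols for replicates. The TNF + ACHP libraries lie above the TNF libraries in 11 of the 12 pairs, and overlap them for Cxcl2 relative to Cxcl12.

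The neutrophil chemokines were not uniform among themselves. Their summed level was 21.6 to 30.1 CPM with TNF and ACHP, 20.4 to 22.6 with TNF and 8.08 to 10.4 with PBS, so the first pair of groups overlapped. The composition differed: the log2 ratio of Cxcl5 to Cxcl2 was -1.56, -0.13 and -0.25 with TNF and ACHP, -2.48, -2.61 and -2.55 with TNF, and -1.08, -1.49 and -1.33 with PBS. Thus Cxcl5 was lowest relative to Cxcl2 in the TNF libraries. Cxcl2 relative to Cxcl1 was at 1.22, 1.27 and 1.02 with TNF and ACHP, 1.35, 1.26 and 2.09 with TNF, and 1.01, 0.84 and 1.26 with PBS, where the TNF and ACHP libraries overlapped both other groups and the TNF libraries lay just above all PBS libraries.
Over the 9 libraries, which share group and treatment, the log2 CPM of Cxcl10 and Cxcl16 had a Pearson r of 0.938, Cxcl1 and Cxcl2 of 0.872, and Cxcl5 and Cxcl14 of -0.824.
The genes whose log2 CPM was most like that of Cxcl10 were Ccl2, a monocyte chemokine (r = 0.995), Tmem176a (0.988) and Bid, a pro-apoptotic Bcl-2 family gene (0.986). Ccl2 averaged 16.4 CPM with TNF and ACHP, 108.6 with TNF and 17.2 with PBS. For Cxcl16 they were Birc3, an inhibitor of apoptosis (0.987), Ccl20 (0.983) and Clic4 (0.983), with Birc3 at 39.8, 58.4 and 35.1 CPM.
For Cxcl2 they were Rnf19b (0.972), Dtx4 (0.964) and Haus1 (0.963), and Rnf19b averaged 121 CPM with TNF and ACHP, 122 with TNF and 91.5 with PBS. For Cxcl1 they were Nudc (0.978), Mcm3, a replication licensing gene (0.976), and Carhsp1 (0.959), and Mcm3 averaged 90.8, 90.3 and 78.0 CPM. For Cxcl5 they were Cacfd1 (0.979), Men1 (0.972) and Vat1 (0.97), whose levels moved little, with Men1 at 35.2, 31.4 and 31.2 CPM.

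**Figure D4:**
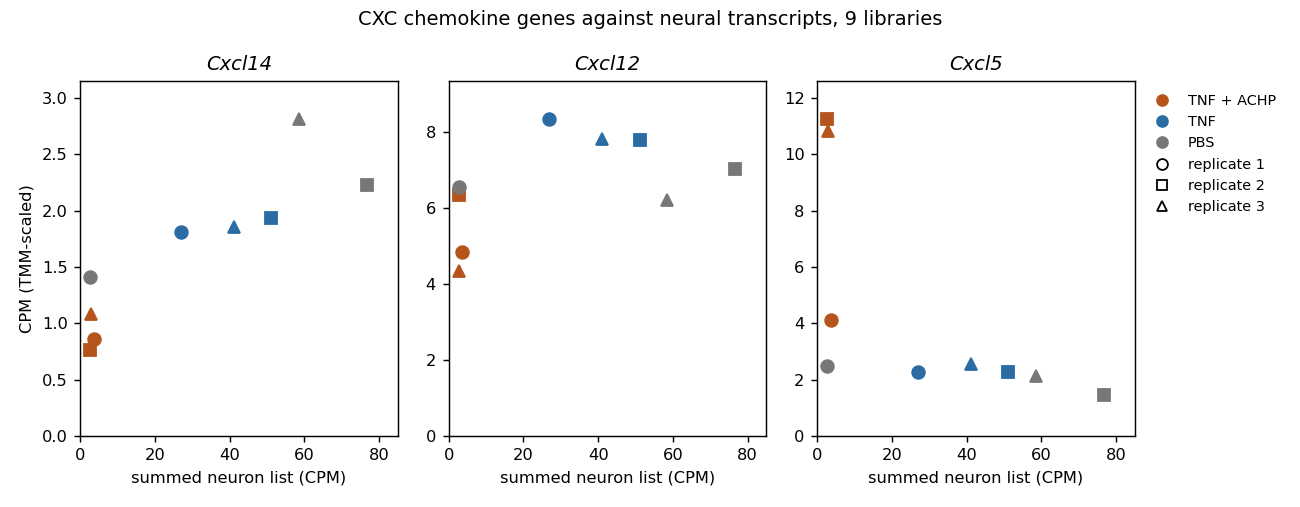
CPM of Cxcl14, Cxcl12 and Cxcl5 (vertical axes from 0) against the summed CPM of 12 neuron genes (horizontal axis) in the 9 libraries, coloured by group, with symbols for replicates. All 3 TNF + ACHP libraries lie at 2.67 to 3.68 on the neuron axis beside PBS replicate 1, and no TNF library lies there. PBS replicate 1 has 1.41 CPM of Cxcl14, below the other PBS libraries, and 2.47 CPM of Cxcl5.

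Other ligands were given beside the 9 genes. Of 7 genes listed, 3 were tested. Cx3cl1, which encodes the membrane-bound chemokine fractalkine, was at 15.1, 13.8 and 17.0 CPM with TNF and ACHP, 25.7, 26.0 and 27.5 with TNF, and 14.5, 18.0 and 19.9 with PBS. The TNF libraries lay above all others, with a log2 fold change of 0.58 for TNF against PBS (edgeR adjusted p = 0.00056) and -0.79 for ACHP against TNF (edgeR adjusted p = 2.2e-05). The change for ACHP against TNF was -0.41 with the neural term (edgeR adjusted p = 0.29).
Cxcl11, a Cxcr3 ligand in other species that RefSeq lists as a transcribed pseudogene in the mouse, shares 41.7% of its exon length with another gene, so its counts are uncertain. It was at 0.368, 0.382 and 0.255 CPM with TNF and ACHP and 1.70, 1.27 and 1.28 with TNF, a log2 fold change of -2.05 (edgeR adjusted p = 0.0034), and -0.99 with the neural term (edgeR adjusted p = 0.70). With TNF against PBS (0.353, 0.892 and 0.595 CPM) its log2 fold change of 1.18 did not pass (edgeR adjusted p = 0.067).
Ppbp, the Cxcr2 ligand known from platelets, was the most abundant of all these ligands per length, at 194, 197 and 235 CPM per kilobase with TNF and ACHP, TNF and PBS. It was lower with TNF than with PBS by a log2 fold change of -0.25 (edgeR adjusted p = 0.0082), and -0.02 with ACHP against TNF (edgeR adjusted p = 0.86), or 0.12 with the neural term (edgeR adjusted p = 0.65). Against PBS, Ppbp had a log2 fold change of -0.28 with TNF and ACHP (edgeR adjusted p = 0.0046), and -0.18 with the neural term (edgeR adjusted p = 0.32). Cxcl3, another neutrophil chemokine, had 52 counts in all and was not tested, nor were Cxcl9, Cxcl13 and Pf4, with at most 16 counts.
Of 12 receptor genes 3 were tested. Ackr3 was at 1.78, 1.00 and 0.701 CPM with TNF and ACHP, 0.879, 1.13 and 1.09 with TNF, and 2.12, 2.23 and 2.33 with PBS, and fell with TNF against PBS (log2 fold change -1.11, edgeR adjusted p = 0.044). Cxcr4 and Cxcr6 were not called in any comparison, at means of 0.660 to 1.17 CPM. Cxcr2, the receptor of the neutrophil group, had 2 counts over all libraries, and Cxcr1 and Cxcr3 had 0.

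Genes of the pathways that act on these chemokines were counted by list, and each count stands beside the share of all genes called. Of 12 NF-kB genes, 6 were higher with TNF than with PBS and none was lower, against 3.31% and 2.91% of all genes, with a list median of 0.31. The largest changes were in the inhibitor genes Nfkbia (1.14) and Nfkbie (0.96) and in Relb (0.59). With the neural term 7 of the 12 were higher with TNF than with PBS, where 6.46% of all genes were called. With ACHP against TNF, 5 of the 12 were lower and none was higher, against 4.46% and 2.71% of all genes, with a list median of -0.18. Nfkbie (-0.83), Nfkbia (-0.72) and Relb (-0.40) fell most, and with the neural term 4 of the 12 were lower, where 0.97% of all genes were called. Against PBS, Nfkbia (0.42) and Nfkb2 (0.22) were higher with TNF and ACHP, where 2.18% of all genes were. With the neural term this held for Nfkbia (0.48), where 1.1% of all genes were called.
Of 13 tested interferon-axis genes, 3 were higher with TNF than with PBS, against 3.31% of all genes: Irf5 (0.90), Irf1 (0.55) and Ifngr2 (0.40). With ACHP, 4 fell relative to TNF, against 4.46% of all genes, among them Irf5 (-0.91), Irf1 (-0.57) and Ifngr2 (-0.30). None was called with the neural term, where 0.97% of all genes were. The log2 fold changes of these 3 genes were then -0.85, -0.42 and -0.27. Irf1, an activator of interferon-inducible genes, averaged 21.1 CPM with TNF and ACHP, 31.2 with TNF and 21.2 with PBS. Against PBS none of the 13 was called with TNF and ACHP, where 6.04% of all genes were.
Of 13 C/EBP and AP-1 genes, 4 were higher with ACHP than with TNF and none was lower, against 2.71% and 4.46% of all genes. Among them were Cebpd (0.77), Fosb (0.57) and Egr1 (0.40). The neural term left 1 called, where 0.97% of all genes were: Jund (0.42), which was named after its value was seen. Jund shares 52.6% of its exon length with another gene, so its counts are uncertain. Cebpd averaged 7.61 CPM with TNF and ACHP, 4.46 with TNF and 4.70 with PBS. Against PBS, 4 were higher, where 2.18% of all genes were, among them Cebpd (0.69), Atf3 (0.36) and Jund (0.16). In that comparison 2 were higher with the neural term, where 1.1% of all genes were called. With TNF against PBS, Junb (0.18) was higher and Jund (-0.20) lower, where 6.22% of all genes were called.
Of 14 genes of CXC mRNA stability and the IkB-zeta axis, none was called with ACHP against TNF, where 7.17% of all genes were, a share at which about 1 of 14 would be called. Zfp36l2, an mRNA decay factor, was lower with TNF than with PBS (-0.22), and was the only one called of the 14, where 6.22% of all genes were. With the neural term Zfp36l2 was lower (-0.24) and Zc3h12a higher (0.40) in that comparison, where 6.46% of all genes were called. Against PBS, TNF and ACHP cultures were higher in Zc3h12a, which encodes the ribonuclease Regnase-1 (0.58), and in Arid5a, an mRNA-stabilising factor (0.39), and lower in Rc3h1 (-0.16), where 6.04% of all genes were called. In this comparison none of these 3 was called with the neural term, where 1.1% of all genes were.
Of 9 tested proteases, sheddases and their inhibitors, 3 were higher and 1 lower with TNF than with PBS, against 3.31% and 2.91% of all genes. The largest of these changes were in Mmp9 (1.66), Mmp12 (1.09) and Timp1 (0.33). With the neural term 3 were higher and 2 lower, where 6.46% of all genes were called. With ACHP, 3 fell relative to TNF, against 4.46% of all genes: Mmp12 (-1.96), Mmp9 (-0.81) and Dpp4 (-0.56), which encodes a peptidase that trims the amino terminus of Cxcl10 and Cxcl12. Mmp12 and Mmp9 were also lower with the neural term, where 0.97% of all genes were called. Against PBS, 2 were higher and 3 lower with TNF and ACHP, against 2.18% and 3.87% of all genes, with Mmp12 (-0.88), Mmp9 (0.85) and Mmp2 (-0.45) changed most. In that comparison 1 was higher and 1 lower with the neural term, where 1.1% of all genes were called. Mmp9, a gelatinase that cleaves several CXC chemokines, averaged 101 CPM with TNF and ACHP, 177 with TNF and 55.7 with PBS. Mmp12 averaged 5.87, 22.7 and 10.7 CPM in the same groups. Adam10, the sheddase of Cxcl16, was not called in any comparison, at 272, 280 and 293 CPM.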

How the data were processed

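Total RNA of 9 libraries was sequenced. The deposited values are raw read counts for Ensembl genes, made per the file headers by featureCounts 2.0.1 on Ensembl 109 for GRCm39. The submitters' processing notes name STAR, featureCounts, DESeq2 and mm10, and coordinates follow the table. Reads shared between genes may be missing from overlapping genes, and counts are not split by strand. Symbols were matched for 52029 of 57010 identifiers, holding 99.6% of the counts. The depth of 14194295 to 20892176 counts per library limits precision for genes with few counts.

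The analysis used edgeR 4.0.16 in R 4.3.3 (TMM factors, filterByExpr, 14747 genes kept, one quasi-likelihood fit of 9 libraries with a mean per group) and Benjamini-Hochberg adjustment over all kept genes; called means an adjusted p under 0.05. CPM values are TMM-scaled, given as mean ± SD of 3 libraries. Ratios used log2 CPM with a prior count of 2 and exact permutation tests. Promoter windows came from RefSeq (GRCm38.p6).

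The 9 genes and all lists were chosen with earlier results of these data known. Named were all 9 genes, the listed ligands and receptors, up to 3 called genes per other list and comparison with the largest change, and the 3 genes most correlated with Cxcl1, Cxcl2, Cxcl5, Cxcl10 and Cxcl16 among those of at least 1 CPM (Adam10, and Jund with the neural term, were added after their values were seen). Alternatives were DESeq2 1.42.0, other scaling and filters, fits of 6 libraries, a replicate block, leaving out single libraries, terms or subsets for neural transcripts, and an adjusted p under 0.01.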

Additional observations from a re-analysis of the deposited data

How the results depend on the processing

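With TNF against PBS 4 genes were called under every alternative run. With TNF and ACHP against TNF, 5 were called, 2 with the neural term, 4 with DESeq2 and 3 to 5 without single libraries (3 without TNF replicate 1 or TNF and ACHP replicate 3). Against PBS, 5 were called, 2 with the neural term, 3 at an adjusted p under 0.01 and 4 to 5 without single libraries. The difference of medians between neutrophil chemokines (Cxcl1, Cxcl2 and Cxcl5) and others, 1.01, was 0.50 with the neural term and 0.85 to 1.17 without single libraries. It was 0.70 with no filter, where Cxcl15 and Cxcl17 enter among the others, although Cxcl15 is itself an ELR chemokine. Separated pairs numbered 11 to 12 without single libraries, and 11 with a prior count of 0.5 or 5. The sign turned for log2 fold changes near 0: Cxcl14 with TNF against PBS without PBS replicate 3 (0.020, from -0.44 to 0.020 without single libraries), Cxcl1 with ACHP against TNF with the neural term (-0.015), and Cxcl10 with TNF and ACHP against PBS with the neural term (0.033). The libraries of few neural transcripts also gave 0.033 for Cxcl10, since both settings compare with PBS replicate 1 alone. The cause was not tested.

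Same-numbered libraries did not deviate together (correlations from -0.308 to 0.327). With the replicate number as a block, 4, 5 and 5 genes were called and the difference of medians was 1.03. No TNF library has few neural transcripts and no TNF and ACHP library has many, so those subsets give no value for comparisons that need them. Depth limits Cxcl14 (112 counts at most in a group), and Cxcl15 and Cxcl17 did not pass the filter on low counts.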
